A study of Tupaia belangeri with 6 samples.

Results

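A list of 35 genes that lie at loci named in genetic studies of Alzheimer's disease (AD) risk was followed through single-nucleus RNA sequencing (snRNA-seq) of the hippocampus of tree shrews (TSs; Tupaia belangeri). The members were taken by symbol, and 34 of the 35 had a row among the 83605 features counted in each library. There were 6 libraries of nuclei, 3 from control TSs (titled Normal) and 3 from TSs with Alzheimer's-like pathology (ALP; titled AD). All animals were naturally aged, between 5 and 6 years old. By the description in the methods, the ALP TSs were picked from an aging colony for poor performance in a maze, and the controls were of matching age. The labels name no genotype, strain or treatment for either group. The libraries are called Control 1 to 3 and ALP 1 to 3. The sources used here tie no library to an animal or a sex, so p-values measure the spread between these libraries, which may be partly technical.

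The list brings together genes of several branches of AD biology. BIN1, PICALM, CD2AP, RIN3, SORL1, SNX1 and USP6NL act in endocytosis and in the sorting of cargo between endosomes, the Golgi apparatus and lysosomes, a route along which the amyloid precursor protein is carried. CLU, ABCA1 and ABCA7 take part in lipid transport, and GRN and TMEM106B are lysosomal proteins. SPI1, MEF2C, PLCG2, CD33, CR1, IL34 and TNIP1 belong to immune regulation, and in brain several of them are known from microglia, the resident macrophages. PTK2B, FERMT2, CASS4, ANK3 and UNC5C act in adhesion, the membrane skeleton and axon guidance, while CELF1, an RNA-binding protein that regulates splicing, and JAZF1 act in the nucleus.

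Not every member could be measured. TPCN1, an endolysosomal cation channel, had no row under that symbol. CD2AP and CASS4 had a row with no unique molecular identifier (UMI, the tag that marks a captured RNA molecule) in any of the 28233 nuclei kept. ABCA7 had 1 UMI, MADD 10, CD33 16, EPHA1 20, ADAMTS1 29, ZCWPW1 40, ECHDC3 73, RIN3 119 and GRN 145 UMIs over all 6 libraries together. At the other end stood ANK3 with 70373 UMIs, MEF2C with 30831, WWOX with 27133, JAZF1 with 20195 and BIN1 with 17852. In sums over the nuclei of a library and class, the members together held between 0.220% and 0.927% of the UMIs. Features with a copy-style name stood beside some members: CD2APli1 held 5023 UMIs, TPCN1li1 7236 and IL34li1 2811. The copy-named features of PICALM and ANK3 held 0 and 2 UMIs. Features named LINC with a member's symbol held 12358 UMIs for MEF2C (22 features) and 6464 for SORL1 (16 features), against 7227 for SORL1 itself. They held 1010 for WWOX and fewer for the other members. How all these features relate to the genes of the same root was not given in the sources used here. They were kept apart from the members.

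Of 37603 barcodes, the 28233 with more than 200 and fewer than 2500 genes and under 5% mitochondrial UMIs were kept, 1614 to 7022 per library with Control 2 the smallest. Their UMIs summed to between 4159545 and 15412799 per library, and the library medians ran from 1502.5 to 2187.5 UMIs per nucleus. The upper limit on genes removed 16.0% to 46.4% of the barcodes of a library. Clusters of nuclei were given class names from marker lists and are written as "-like": 8728 Oligo-like (oligodendrocytes), 3245 Astro-like (astrocytes), 2794 Gran-like (dentate granule cells), 2715 OPC-like (oligodendrocyte precursors), 2443 InN-like (inhibitory neurons), 1549 Micro-like (microglia), 1424 Pyra-like (named from pyramidal cell markers), 1307 ExN-like (named from general markers of excitatory neurons), 415 Endo-like, 195 Mural-like and 185 Ependymal-like nuclei. The remaining nuclei stayed unnamed, most of them in a cluster of low depth. Pyra-like and ExN-like name clusters and do not separate pyramidal cells from other excitatory neurons: the summed pyramidal markers averaged 3272 CPM in ExN-like and 1254 CPM in Pyra-like nuclei. The summed mural markers averaged 1626 CPM in Endo-like and 1541 CPM in Mural-like nuclei, so their sum does not separate these classes. RGS5 read 1356 and 610 CPM there over all libraries together, and the other genes of that list were higher in Mural-like nuclei. The members were kept out of the genes used for clustering. Control 3 had 9 ExN-like nuclei, too few for a sum, so this class was compared over 2 control and 3 ALP libraries. Levels are given as CPM, the usual scaling of a gene's UMIs to a common total for the class in each library, with the factors (TMM) of the fit they come from, as the mean ± SD over libraries. The class comparison and the group comparison were scaled separately, so CPM values are not to be set against each other between them. For 3′ tag counts the level is not divided by gene length, and levels are therefore compared within a gene and not between genes.

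The first question was where in the hippocampus each risk gene was expressed. Of the 34 members with a row, 24 passed the filter on low counts in the comparison of the 11 classes, and each class was set against the mean of the others and against every other class in 1 edgeR fit with the library as a term. Called higher in a class means an adjusted p under 0.05 with a log2 difference above 1. By this rule 11 of 24 members were higher in Micro-like nuclei, where 13.2% of all 14611 genes tested were. In Oligo-like nuclei 7 of 24 were called (15.9% of all genes) and in Astro-like nuclei 6 of 24 (16.7%). The counts were 6 each in Gran-like (17.1%) and Pyra-like (20.8%), 5 in ExN-like (18.4%), 3 in InN-like (17.9%), 4 in OPC-like (15.6%), 5 in Endo-like (15.3%), 1 in Mural-like (6.91%) and 4 in Ependymal-like nuclei (10.7%). Micro-like nuclei thus had the most calls of the members, although not of all genes.

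**Figure D1:**
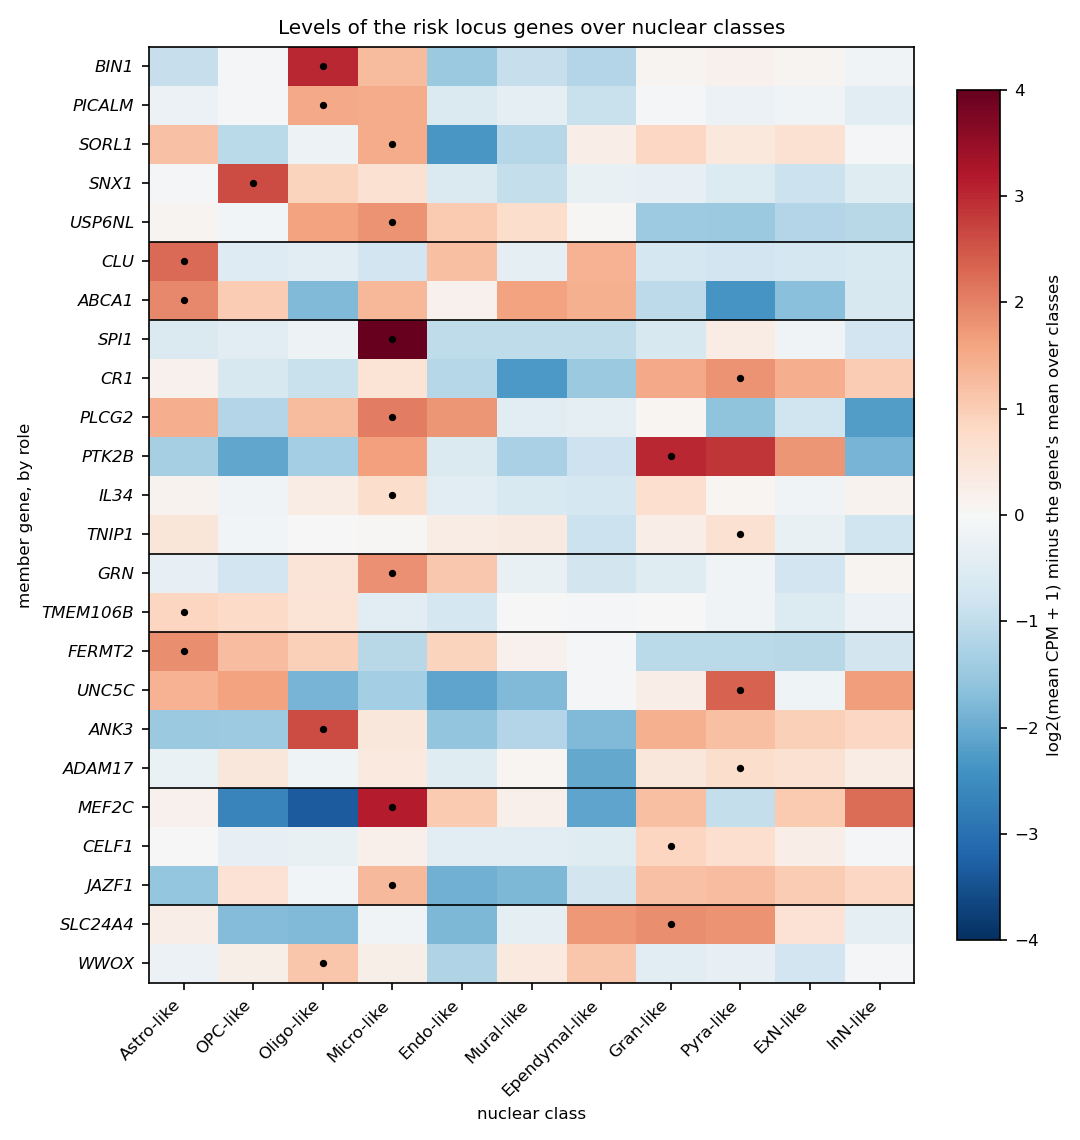
Level of 24 members (rows) in 11 classes (columns) relative to the gene's own mean over the classes, with a dot in the class of the highest mean. Colours show CPM of the class fit, averaged over libraries, on a log2 scale after the gene's mean was subtracted. They compare classes within a gene and not genes with each other. BIN1, ANK3, PICALM and WWOX had their dot in Oligo-like nuclei, MEF2C and SPI1 in Micro-like, CLU and FERMT2 in Astro-like, SNX1 in OPC-like and UNC5C and CR1 in Pyra-like nuclei.

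Among the genes of endocytosis and sorting, BIN1, whose product bends membranes during endocytosis, was highest in Oligo-like nuclei. It read 1051, 1161 and 1148 CPM in Control 1 to 3 and 1208, 1104 and 1269 CPM in ALP 1 to 3, a mean of 1157 ± 76.6 CPM. Micro-like nuclei came next at 345 ± 78.3 CPM, and the difference was 1.79 on the log2 scale (SE 0.14, edgeR adjusted p = 2.4e-19). Every library put Oligo-like nuclei first, with no overlap between the 2 classes. The neuronal classes lay between 129 and 161 CPM, Endo-like nuclei lowest at 49.8 ± 19.6 CPM. PICALM, a clathrin adaptor, read 579 ± 84.2 CPM in Oligo-like and 563 ± 149 CPM in Micro-like nuclei, which did not differ beyond their spread (log2 difference 0.055, SE 0.14, edgeR adjusted p = 0.77). OPC-like nuclei followed at 197 ± 37.9 CPM.

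SNX1, a sorting nexin that works with the retromer on endosomes, was the member most set apart in OPC-like nuclei. Its levels there were 366, 206 and 228 CPM in the control and 329, 258 and 363 CPM in the ALP libraries, a mean of 292 ± 70.2 CPM. Oligo-like nuclei, the second class, held 89.1 ± 15.9 CPM, and the difference of 1.70 (SE 0.13) passed the test (edgeR adjusted p = 2.1e-20). The highest Oligo-like library, at 112 CPM, stayed below the lowest OPC-like library. SORL1, the sorting receptor of the amyloid precursor protein, had its highest mean in Micro-like nuclei at 278 ± 138 CPM, a spread set by Control 1 at 532 CPM against 137 to 301 CPM in the other 5 libraries. Astro-like nuclei held 226 ± 76.6 CPM and Gran-like nuclei 178 ± 40.0 CPM, and 4 of 6 libraries put Micro-like nuclei first. USP6NL, which inactivates an early-endosome GTPase, read 228 ± 79.7 CPM in Micro-like and 199 ± 46.0 CPM in Oligo-like nuclei and did not separate them (edgeR adjusted p = 0.18), while the neuronal classes stayed between 22.2 and 29.4 CPM.

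Of the lipid transport and lysosomal members, CLU and ABCA1 had their highest means in Astro-like nuclei. CLU, a secreted apolipoprotein, read 1123 ± 347 CPM in Astro-like nuclei against 612 ± 409 CPM in Ependymal-like and 537 ± 269 CPM in Endo-like nuclei, and 136 to 179 CPM in the remaining classes. The Astro-like levels were 1246, 1007 and 513 CPM in the control and 1130, 1530 and 1313 CPM in the ALP libraries, so Control 3 stood low. The difference from Ependymal-like nuclei was 0.92 (SE 0.20, edgeR adjusted p = 0.00011) and held in 5 of 6 libraries. ABCA1, the cholesterol exporter that loads apolipoproteins, read 149 ± 29.0 CPM in Astro-like nuclei, not separated from Mural-like (121 ± 58.6 CPM) or Ependymal-like nuclei (106 ± 45.8 CPM), and 6.76 ± 4.37 CPM in Pyra-like nuclei. TMEM106B ran from 115 ± 28.6 CPM in Astro-like down to 38.1 ± 13.2 CPM in Endo-like nuclei. OPC-like, Oligo-like and Mural-like nuclei were not separated from Astro-like nuclei, and the remaining classes were lower. GRN, the progranulin gene, reached only 13.0 ± 10.2 CPM in Micro-like nuclei.

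The immune members did not share a class. SPI1, the transcription factor PU.1 that specifies myeloid cells, read 152, 36.6 and 162 CPM in the control and 39.5, 102 and 74.2 CPM in the ALP libraries of Micro-like nuclei. The next class, Pyra-like, held 7 UMIs in all, a mean of 1.49 ± 1.15 CPM, and the difference between these classes was 5.79 (SE 0.39, edgeR adjusted p = 5.2e-21). No SPI1 UMI was counted in 415 Endo-like, 195 Mural-like or 185 Ependymal-like nuclei. PLCG2, a phospholipase downstream of microglial receptors, was weaker and less exclusive, with 56.3 ± 16.6 CPM in Micro-like, 46.7 ± 19.0 CPM in Endo-like and 37.1 ± 11.9 CPM in Astro-like nuclei, the first pair not separated (edgeR adjusted p = 0.44). CD33, a sialic acid receptor of myeloid cells, had 7 of its 16 UMIs in Micro-like nuclei.

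MEF2C, a transcription factor of both microglia and neurons, ranged widely over the classes. It read 3285, 1832 and 2566 CPM in the control and 3073, 2545 and 2558 CPM in the ALP libraries of Micro-like nuclei (2643 ± 506 CPM). InN-like nuclei held 1395 ± 193 CPM, lower by 0.91 on the log2 scale (SE 0.21, edgeR adjusted p = 0.00013) and lower in every library, and Gran-like nuclei 693 ± 69.9 CPM. Oligo-like nuclei stood last at 28.9 ± 7.88 CPM. CR1, a complement receptor known from blood cells and microglia, followed neurons in these libraries. Its mean was 243 ± 40.4 CPM in Pyra-like, 202 ± 71.3 CPM in Gran-like, 192 ± 45.8 CPM in ExN-like and 142 ± 58.5 CPM in InN-like nuclei, against 102 ± 42.4 CPM in Micro-like nuclei. Pyra-like and ExN-like nuclei did not differ beyond their spread, and the Pyra-like excess over Gran-like nuclei was small (log2 difference 0.35, SE 0.14, edgeR adjusted p = 0.0497). TNIP1, an inhibitor of NF-kB signalling, ran between 8.74 and 26.2 CPM and IL34, a ligand of the microglial receptor CSF1R, between 6.66 and 19.1 CPM, and for each the highest class was not separated from 5 others.

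**Figure D2:**
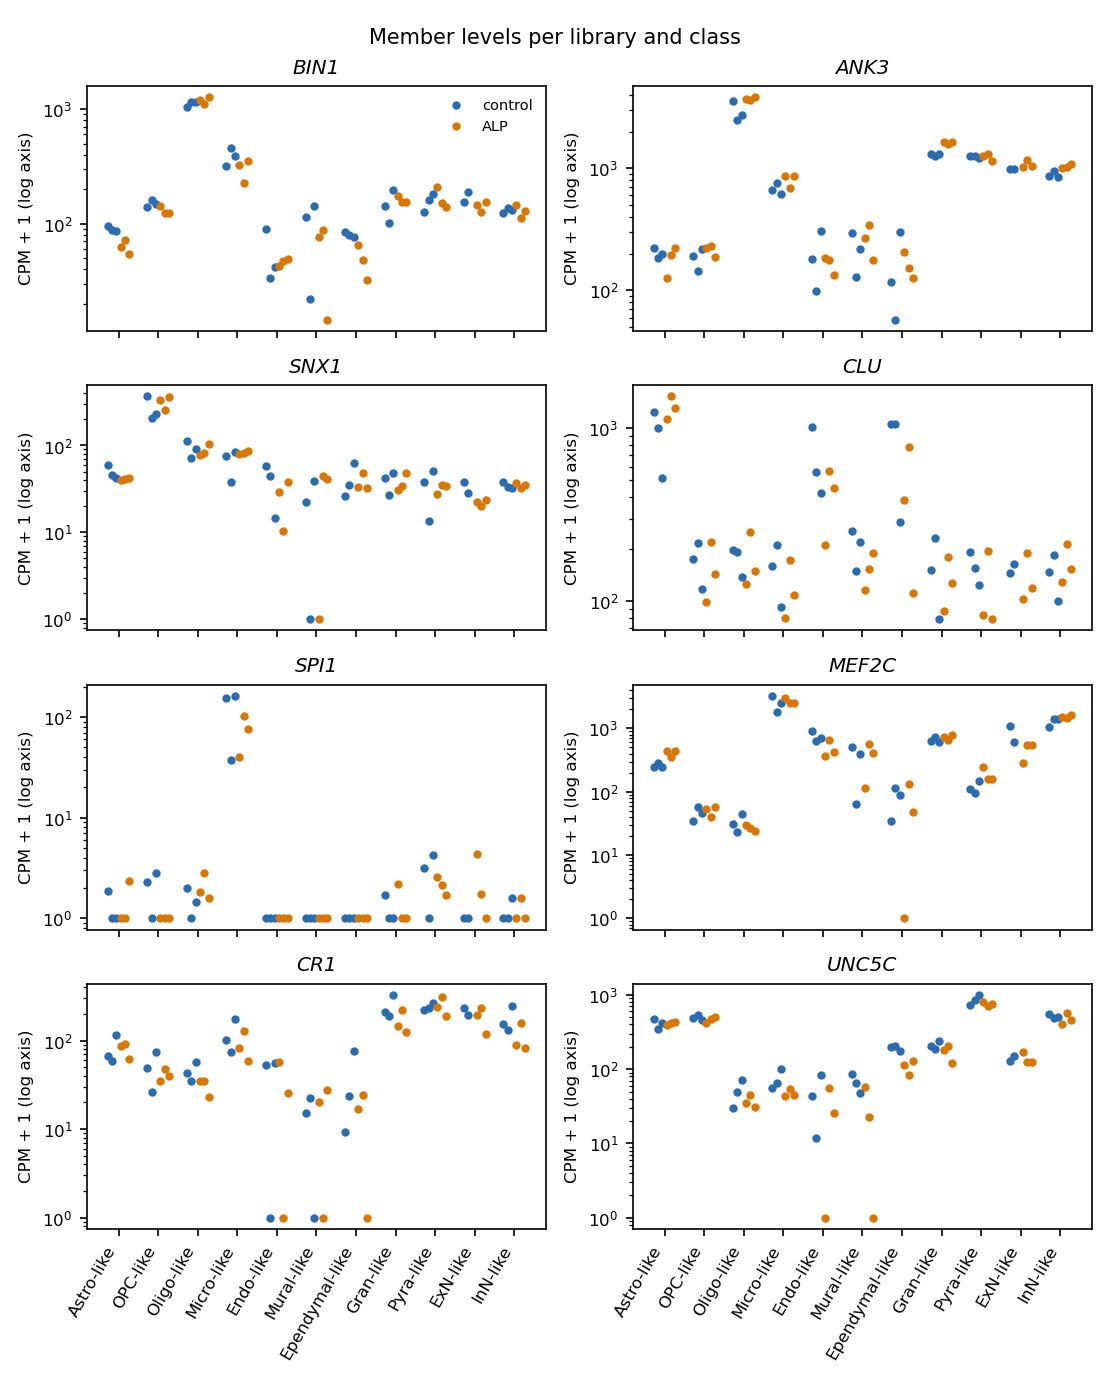
Level of 8 members in every library and class (points; CPM + 1 of the class fit, log axis), with control and ALP libraries in separate colours. The 6 SNX1 points of OPC-like nuclei lie above those of all other classes, SPI1 is near 0 outside Micro-like nuclei, and the control and ALP points of a class are intermingled for most members.

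ANK3, whose product ankyrin-G anchors channels at axon initial segments and nodes, was highest in Oligo-like nuclei at 3563, 2495 and 2743 CPM in the control and 3695, 3631 and 3825 CPM in the ALP libraries. Gran-like nuclei followed at 1457 ± 180 CPM, a log2 difference of 1.19 (SE 0.15, edgeR adjusted p = 1.1e-10), then Pyra-like nuclei at 1246 ± 55.9 CPM. FERMT2, an activator of integrins, read 339 ± 60.9 CPM in Astro-like nuclei and 218 ± 27.1 CPM in OPC-like nuclei (log2 difference 0.63, SE 0.13, edgeR adjusted p = 4.1e-05), higher in Astro-like nuclei of all 6 libraries. UNC5C, a netrin receptor, read 809 ± 108 CPM in Pyra-like nuclei, ahead of InN-like (496 ± 57.3 CPM), OPC-like (482 ± 38.2 CPM) and Astro-like nuclei (415 ± 42.5 CPM), and the lead over InN-like nuclei was 0.70 (SE 0.15, edgeR adjusted p = 5.1e-05). PTK2B, a focal adhesion kinase of neurons, read 389 ± 45.2 CPM in Gran-like and 350 ± 97.8 CPM in Pyra-like nuclei, with no separation between them, and 12.4 ± 4.83 CPM in InN-like nuclei.

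CELF1 read 254 ± 47.0 CPM in Gran-like and 222 ± 32.0 CPM in Pyra-like nuclei and between 98.2 and 102 CPM in the vascular and ependymal classes. WWOX, an oxidoreductase, read 937 ± 212 CPM in Oligo-like and 935 ± 313 CPM in Ependymal-like nuclei. JAZF1 was between 494 and 602 CPM in Micro-like and the excitatory classes, which were not separated, and 64.2 ± 21.4 CPM in Endo-like nuclei. SLC24A4, a cation exchanger, read 41.8 ± 14.4 CPM in Gran-like nuclei, close to Pyra-like and Ependymal-like nuclei. ADAM17, a metalloprotease that sheds membrane proteins, had its highest mean in Pyra-like nuclei at 50.5 ± 10.7 CPM, not separated from 6 other classes.

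Markers of other classes were present in the Micro-like sums. The summed oligodendrocyte markers read 1377 to 1845 CPM there, against 6215 to 8529 CPM in Oligo-like nuclei. The summed T cell list read 212 to 367 CPM, nearly all of it from CD2 (274 CPM over all libraries together). CD3E, CD247, SKAP1 and THEMIS each read 7.24 CPM or less, so this sum does not stand for T cell markers as a set. The summed granule cell markers read 1623 to 2132 CPM, but this list also averaged 2640 CPM in Oligo-like and 2430 CPM in Gran-like nuclei and does not mark granule cells alone. This stands beside the Micro-like levels of BIN1, PICALM, ANK3 and USP6NL, which are abundant in Oligo-like nuclei, and its part in them was not tested. Of the 58 class calls, 49 were made in every alternative in which the gene was tested (12 for each call, and 9 for those of GRN).

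The classes were not uniform for some members. Within the InN-like class, plain CPM (without TMM scaling) of MEF2C averaged 2082 ± 344 in the cluster led by PVALB, SST and LHX6, 1739 in the cluster with LAMP5, KIT and RELN and 1630 in the LAMP5 and LHX6 cluster. It was 408 in the cluster with CNR1, VIP and ADARB2 and 541 in the SST and NPY cluster. UNC5C ran from 135 in the SST and NPY cluster to 721 in the LAMP5 and LHX6 cluster. MEF2C in Pyra-like nuclei was 589 in cluster 23 and 26.3 and 71.1 in clusters 9 and 15, and in ExN-like nuclei 1097 in cluster 11 and 128 and 130 in clusters 14 and 26. Clusters were formed from these same nuclei, so these values are given as a description.

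Glial classes held such contrasts too. CLU averaged 3985 ± 1600 plain CPM in the 157 Astro-like nuclei of the cluster led by SERPINA3 and GFAP, against 807 ± 274 in the 3088 others. In the smaller cluster it averaged 5207 over control and 2762 over ALP libraries, in the larger 653 and 960. In Micro-like nuclei the 182 nuclei of the GPNMB cluster, summed in the 5 libraries with at least 10 of them, held less MEF2C (1543 ± 99.2 against 3430 ± 572) and less SPI1 (48.6 ± 33.1 against 125 ± 53.8), and more ANK3 (1125 ± 174 against 649 ± 108), than the 1367 others. BIN1 and ANK3, by contrast, ran close together over the Oligo-like clusters, BIN1 from 828 to 988 and ANK3 from 2286 to 2938.

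The share of nuclei with a UMI was computed after thinning each nucleus to 1000 UMIs. SPI1 was then found in 9.58% ± 5.57 of Micro-like nuclei (n = 6 libraries) and in 0.0707% ± 0.0697 of Oligo-like nuclei, a class that should lack it. Without thinning the shares were 13.3% and 0.0870%. CR1 was found in 15.1% ± 2.68 of Pyra-like nuclei and 2.92% ± 1.02 of Oligo-like nuclei, and in 47.6% ± 8.15 and 4.32% ± 1.92 without thinning. PLCG2 reached 5.81% and GRN 1.42% of Micro-like nuclei at 1000 UMIs. A low share at this depth does not show that a gene was silent in the other nuclei.

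The second question was whether the risk genes differed between ALP and control TSs. Between 4 and 22 members were testable per class, in edgeR fits over the 6 library sums of the class, and calling needed a log2 fold change beyond 0.25 besides an adjusted p under 0.05. Of all member and class pairs tested, 1 was called: CELF1 was lower in ALP Oligo-like nuclei. It was 1 of 21 members in a class where 585 of all 11786 genes were called (4.96%). Of all genes tested there, 356 were called lower in ALP (3.02%), so the members' share was near the background. No member was called in Astro-like (0.177% of genes called), OPC-like (1.63%), Micro-like (0.652%), Gran-like (0.899%) or Pyra-like nuclei (0.0113%), and edgeR called no gene at all (0%) in ExN-like, InN-like, Endo-like, Mural-like or Ependymal-like nuclei or in the sums of all nuclei, where DESeq2 called 70, 367, 0, 0, 0 and 1719 genes. At an unadjusted p under 0.05, 3 of 21 members passed in Oligo-like nuclei (21.6% of all genes), 3 of 21 in InN-like (19.6%), 2 of 22 in Astro-like (17.1%), 2 of 22 in Gran-like (17.0%), 2 of 19 in Pyra-like (18.2%), 2 of 20 in ExN-like (13.3%), 1 of 20 in Micro-like (14.4%), 1 of 18 in OPC-like (15.5%), 0 of 8 in Endo-like (5.66%), 0 of 4 in Mural-like (1.78%) and 0 of 7 in Ependymal-like nuclei (6.44%), and 3 of 26 in all nuclei (23.4%). These shares were at or below those of all genes. The groups did not overlap in 31 of 182 member and class pairs (17.0%), against 22.6% of all gene and class pairs. With DESeq2 the only member called was MEF2C in Astro-like nuclei, where DESeq2 called 194 genes.

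**Figure D3:**
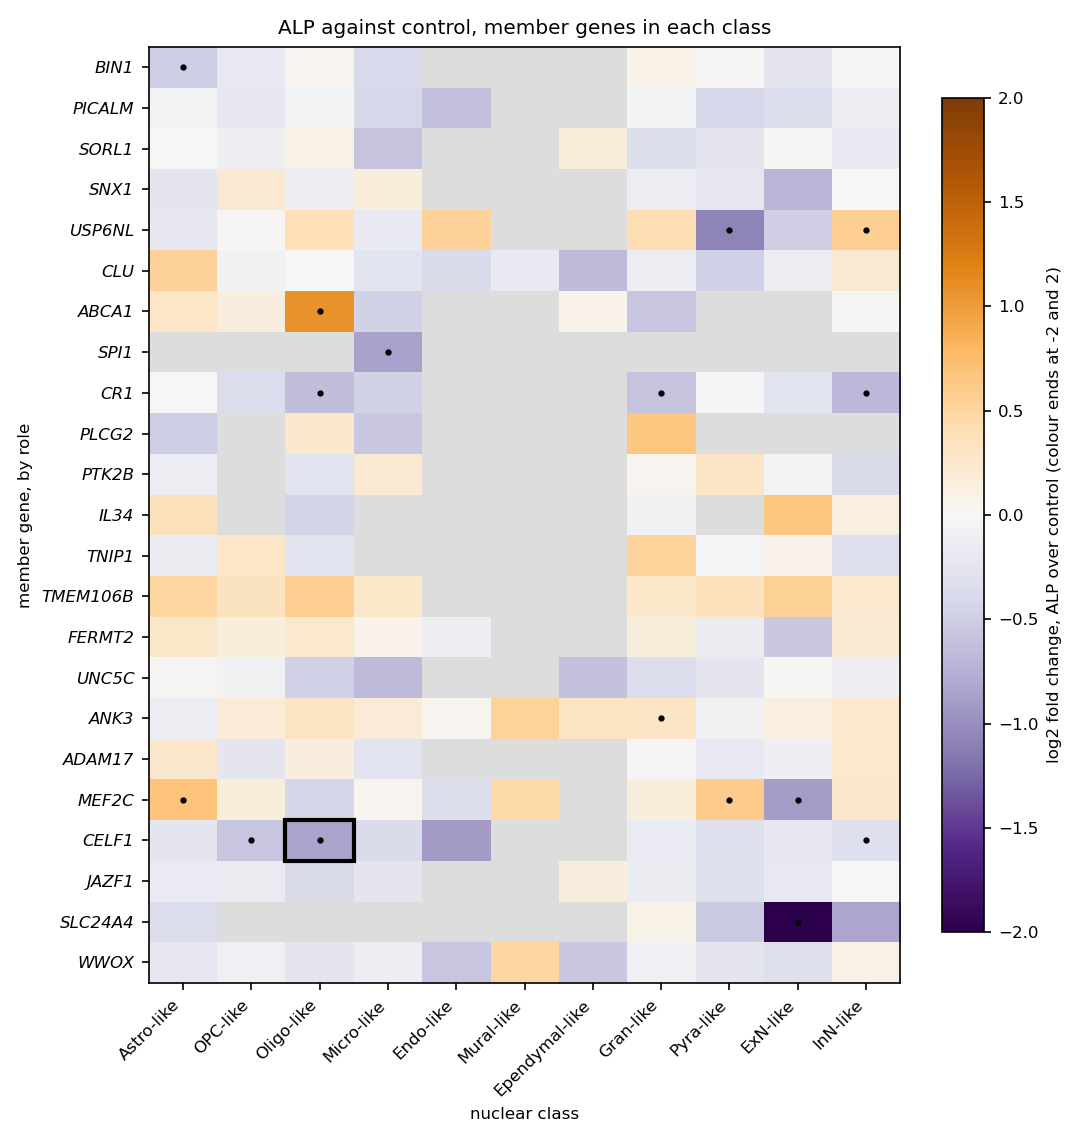
Log2 fold change of ALP over control for each member tested in a class (rows) in each class (columns), with a dot for an unadjusted p under 0.05, a box for a called pair and grey for pairs not tested. The only box is CELF1 in Oligo-like nuclei (-0.85); the colour scale ends at 2 in either direction, and SLC24A4 in ExN-like nuclei (-2.09) lies beyond it.

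CELF1 in Oligo-like nuclei read 124, 108 and 124 CPM in Control 1 to 3 and 51.4, 80.5 and 67.1 CPM in ALP 1 to 3. The control mean was 118 ± 9.19 CPM and the ALP mean 66.3 ± 14.6 CPM, from 837 and 379 UMIs, and the groups did not overlap. The log2 fold change was -0.85 (SE 0.20, edgeR adjusted p = 0.035). The call was lost with DESeq2, with the replicate number as a block (adjusted p = 0.064), with clusters held unequally by the groups left out (log2 fold change -0.66, adjusted p = 0.16), and without Control 1, Control 3, ALP 1 or ALP 3 (adjusted p = 0.087, 0.14, 0.18 and 0.20), and over all alternatives the adjusted p ran from 0.021 to 0.20 (0.053 with DESeq2) and the log2 fold change from -0.99 to -0.66.

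Oligo-like nuclei of the groups came from different clusters: cluster 3 held 11.4% of them in control and 52.4% in ALP libraries (means), cluster 6 held 31.0% and 4.96%, and cluster 21 had 0.0142% in control against 7.73% in ALP libraries. Within clusters, CELF1 averaged 125 plain CPM over control and 77.5 over ALP libraries in cluster 2, and 164 and 60.2 in cluster 3, in neither of which the groups overlapped. In cluster 6 it averaged 94.5 and 41.8 and in cluster 8 92.8 and 57.5, with overlap in both.

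Outside Oligo-like nuclei CELF1 was below 0 on the log2 scale in each of the 8 other classes in which it was tested, none of them called: -0.92 (SE 0.49) in Endo-like, -0.58 (SE 0.24) in OPC-like, -0.37 (SE 0.28) in Micro-like, -0.31 (SE 0.14) in InN-like, -0.30 (SE 0.19) in Pyra-like, -0.25 (SE 0.22) in Astro-like, -0.21 (SE 0.21) in ExN-like and -0.17 (SE 0.18) in Gran-like nuclei. In all nuclei together it was -0.15 (SE 0.15). PICALM was likewise below 0 in 9 of 9 classes tested and CR1 in 8 of 8, and TMEM106B was above 0 in 8 of 8, without a call in the main fits. TMEM106B was called in Oligo-like nuclei without ALP 2 (log2 fold change 0.87, edgeR adjusted p = 0.034), where 1104 of all genes were called. CR1 was called in InN-like nuclei without the filter on low counts (-0.60, edgeR adjusted p = 0.035), where 1418 of all genes were called. The classes share the same 6 libraries and are not repeats of each other.

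The log2 fold change of MEF2C was above 0 in 7 and below 0 in 3 of the 10 classes tested. In the main fits MEF2C was called neither within a class nor against the mean difference of the other classes. In Astro-like nuclei it read 215, 252 and 213 CPM in the control and 403, 302 and 389 CPM in the ALP libraries, without overlap (log2 fold change 0.68, SE 0.17, edgeR adjusted p = 0.082). The adjusted p fell under 0.05 with DESeq2, without the filter on low counts and without ALP 2 (0.035, 0.046 and 0.042). All genes called rose in these settings as well, from 18 to 194, 717 and 237. In the main Astro-like cluster alone the plain CPM of MEF2C averaged 231 in control and 326 in ALP libraries, again without overlap. In Pyra-like nuclei it read 87.5, 76.5 and 120 CPM against 188, 126 and 124 CPM (log2 fold change 0.61, SE 0.25, edgeR adjusted p = 0.24). In ExN-like nuclei it read 924 and 534 CPM in the 2 control libraries and 246, 469 and 486 CPM in the ALP libraries (log2 fold change -0.89, SE 0.31, edgeR adjusted p = 0.24). Without Control 2, Control 1 alone stood against the ALP libraries, and the log2 fold change was -1.19.

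Cluster values stood apart from these class values. In ExN-like cluster 11, which carried most of the MEF2C, the means were 1090 plain CPM over control and 1101 over ALP libraries. This cluster held 74.9% of ExN-like nuclei in control and 37.2% in ALP libraries (means). The control share counts Control 3, with 8 nuclei in this cluster, which the class comparison left out. In Control 1 and Control 2 the cluster had 237 and 42 nuclei. In Pyra-like nuclei MEF2C averaged 216 in control and 963 in ALP libraries in cluster 23, but 98.1 and 44.2 in cluster 15, and in both clusters the groups did not overlap. No test was made within clusters. Cluster 9 held 28.7% of Pyra-like nuclei in control and 67.3% in ALP libraries, cluster 15 held 48.2% and 19.9% and cluster 23 held 23.1% and 12.8%, and the part of these shares in the Pyra-like values of MEF2C and of USP6NL was not tested. In Micro-like nuclei, its class of highest level, MEF2C did not differ detectably (log2 fold change 0.052, 95% interval -0.46 to 0.56).

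**Figure D4:**
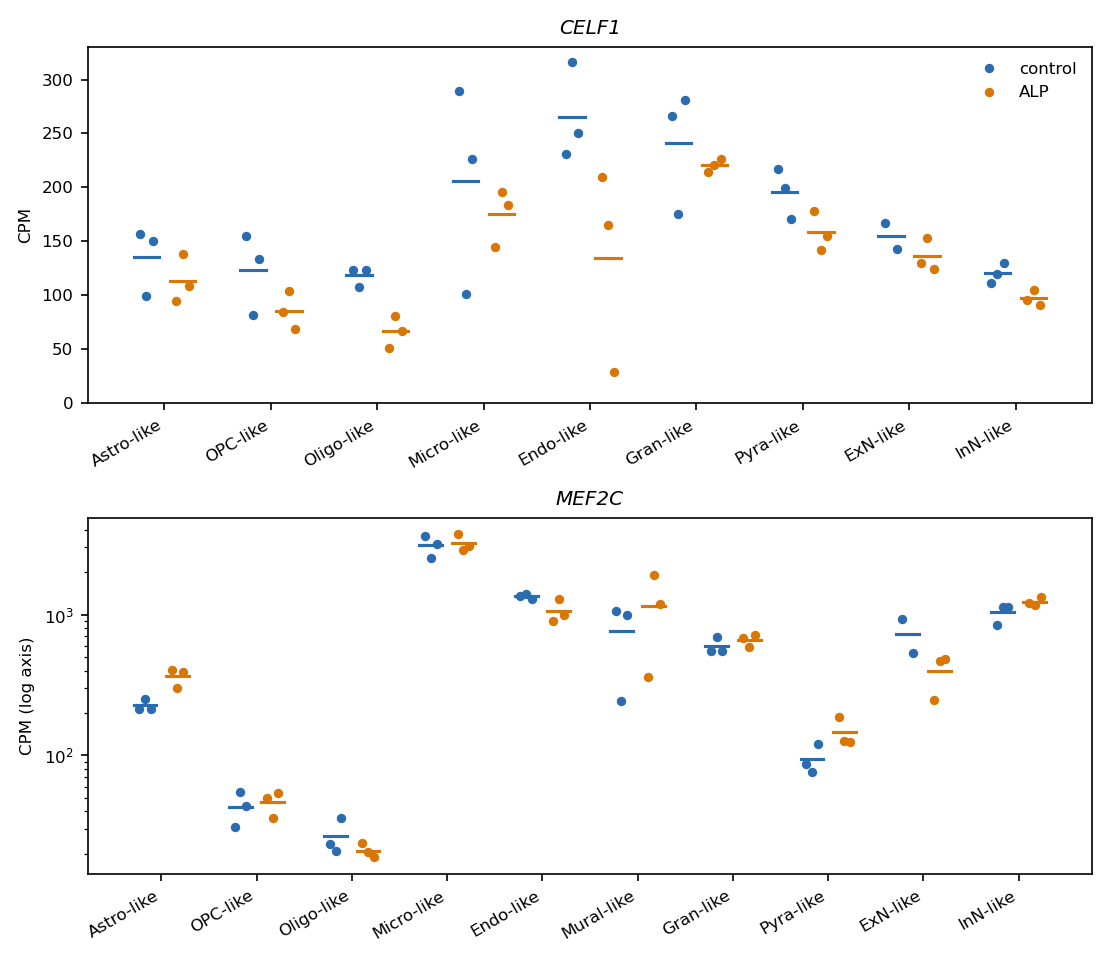
CELF1 (linear axis) and MEF2C (log axis) in every library and class, as CPM of the group fits, with lines at the group means. The CELF1 control points of Oligo-like nuclei (108 to 124 CPM) lie above all 3 ALP points (51.4 to 80.5 CPM), and for MEF2C the ALP points lie above the control points in Astro-like and Pyra-like nuclei and below them in ExN-like nuclei.

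Of the endocytosis and sorting members, BIN1 in its main class, Oligo-like nuclei, differed by 0.059 (95% interval -0.35 to 0.47), PICALM there by -0.051 (-0.45 to 0.35) and SNX1 in OPC-like nuclei by 0.23 (-0.22 to 0.68). SORL1 in Micro-like nuclei had a log2 fold change of -0.58 (-1.22 to 0.056), with the control libraries at 587, 189 and 371 CPM and the ALP libraries at 245, 321 and 256 CPM, inside the control range. BIN1 in Astro-like nuclei read 81.5, 78.0 and 74.5 CPM in the control and 56.0, 61.1 and 47.5 CPM in the ALP libraries, without overlap and without a call (log2 fold change -0.50, SE 0.20, edgeR adjusted p = 0.23). Its log2 fold change ran from -0.76 to -0.096 over the alternatives. USP6NL read 24.5, 25.5 and 22.7 CPM in control and 8.60, 12.7 and 13.0 CPM in ALP Pyra-like nuclei, from 41 and 51 UMIs (log2 fold change -1.07, SE 0.32, edgeR adjusted p = 0.13). Over the alternatives this log2 fold change ran from -1.16 to -0.13, and with libraries left out from -1.16 to -0.87. USP6NL is higher in Oligo-like and Micro-like nuclei, and in the Pyra-like sums the summed oligodendrocyte markers read 194 to 552 CPM in control and 102 to 199 CPM in ALP libraries and the microglial markers 38.5 to 96.6 against 18.4 to 26.9 CPM. Their part was not tested. In InN-like nuclei it stood the other way, at 20.9, 16.1 and 20.5 against 28.8, 27.5 and 29.6 CPM (log2 fold change 0.57, SE 0.22, edgeR adjusted p = 0.19).

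Among lipid and lysosomal members, CLU in Astro-like nuclei read 1074, 902 and 451 CPM in control and 1033, 1316 and 1169 CPM in ALP libraries (log2 fold change 0.54, 95% interval -0.024 to 1.10). The CLU-rich cluster led by SERPINA3 and GFAP held 4.19% of these nuclei in control and 6.02% in ALP libraries (means). In Control 3 it had 14 nuclei, against 718 in the larger cluster. CLU means over ALP libraries were lower than over control in this cluster and higher in the larger. The part of these shares was not tested. ABCA1 was low in Oligo-like nuclei, at 7.65, 0 and 5.50 CPM in control and 16.2, 9.32 and 13.0 CPM in ALP libraries (log2 fold change 1.07, SE 0.45, edgeR adjusted p = 0.19). TMEM106B in Astro-like nuclei had a log2 fold change of 0.48 (-0.0051 to 0.97). GRN was tested in all nuclei only, where it read 1.25, 2.09 and 1.15 CPM in control and 4.20, 2.59 and 3.80 CPM in ALP libraries from 44 and 101 UMIs (log2 fold change 1.31, SE 0.40, edgeR adjusted p = 0.10). In sums of all nuclei, fewer cells of a type and less RNA per cell cannot be told apart.

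Of the immune members, SPI1 in Micro-like nuclei read 168, 50.5 and 199 CPM in the control and 48.2, 116 and 88.7 CPM in the ALP libraries (log2 fold change -0.86, SE 0.35, edgeR adjusted p = 0.28). The low control value is Control 2, which had 43 Micro-like nuclei, and without this library the log2 fold change was -1.03 and the adjusted p 0.048. All genes called rose from 41 to 375 in that setting. PLCG2 there had a log2 fold change of -0.55 (95% interval -1.19 to 0.084). CR1 did not differ detectably in Pyra-like nuclei (-0.035, interval -0.52 to 0.45), and was lower in ALP means in Oligo-like (36.8 and 24.6 CPM), Gran-like (219 and 147 CPM) and InN-like nuclei (143 and 88.8 CPM), each at an unadjusted p under 0.05 and none called. Control 3 had the highest CR1 of these 3 classes, at 46.6, 295 and 199 CPM.

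Among the adhesion and axon members, ANK3 in Gran-like nuclei read 1150, 1200 and 1199 CPM in control and 1493, 1396 and 1510 CPM in ALP libraries, which did not overlap but did not pass the test over all genes (log2 fold change 0.31, SE 0.13, edgeR adjusted p = 0.26). In the same sums the oligodendrocyte markers read 224 to 610 CPM in control and 654 to 865 CPM in ALP libraries. Cluster 4 held 55.1% and 86.9% of Gran-like nuclei and cluster 29 held 23.8% and 0.399% (means over libraries). The control libraries were unlike in cluster 29, with 0, 24 and 121 nuclei in Control 1 to 3. The part of these markers and clusters was not tested. In Oligo-like nuclei ANK3 means were 2439 ± 276 and 3047 ± 110 CPM (log2 fold change 0.32, SE 0.20, edgeR adjusted p = 0.37). UNC5C in Pyra-like nuclei differed by -0.25 (95% interval -0.66 to 0.16), PTK2B in Gran-like nuclei by 0.050 (-0.30 to 0.40) and FERMT2 in Astro-like nuclei by 0.28 (-0.14 to 0.70). SLC24A4 in ExN-like nuclei read 17.2 and 38.1 CPM in control and 2.91, 6.38 and 6.72 CPM in ALP libraries, from 32 and 17 UMIs (log2 fold change -2.09, SE 0.57, edgeR adjusted p = 0.17).

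Whether the ALP difference of a member in a class departed from its mean difference in the other classes was tested in 1 edgeR fit with class by group terms over 18490 genes, 26 of them members. No member was called in any class. Of all genes, 1.08% were called in Pyra-like, 0.330% in ExN-like, 0.141% in Oligo-like, 0.0595% in Gran-like, 0.0487% in Astro-like, 0.0433% in InN-like, 0.0270% in Endo-like, 0.0162% in Micro-like, 0.0108% each in OPC-like and Mural-like and 0% in Ependymal-like nuclei. The members with the smallest adjusted p were PTK2B in Pyra-like nuclei (log2 difference 0.85, edgeR adjusted p = 0.077), USP6NL in Pyra-like nuclei (-1.16, 0.078), CLU in Astro-like nuclei (0.86, 0.081) and MEF2C in ExN-like nuclei (-0.996, 0.15).

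The other genes of the members' pathways were counted from lists. Of 34 genes of endocytosis and the retromer, 28 were tested in OPC-like nuclei, and 1 rose (0.388% of all genes did) and none fell. This was VPS35, the core subunit of the retromer, at 10.7, 16.4 and 14.0 CPM in control and 36.9, 34.6 and 30.9 CPM in ALP libraries, from 40 and 64 UMIs (log2 fold change 1.39, SE 0.32, edgeR adjusted p = 0.048). This call was lost in 10 of 16 alternatives, without each library but Control 2 among them, with adjusted p up to 0.23. None of the list was called in any other class, with 30 genes tested in Oligo-like nuclei. Of 17 genes of microglial receptor signalling, 13 were tested in Micro-like nuclei and 1 rose (0.302% of all genes did): LAPTM5, a lysosomal membrane protein of immune cells, at 68.4, 75.7 and 75.4 CPM in control and 245, 160 and 151 CPM in ALP libraries (log2 fold change 1.34, SE 0.27, edgeR adjusted p = 0.044), and the call was lost in 9 of 16 alternatives, likewise without each library but Control 2 (adjusted p up to 0.21). The median log2 fold change of the 13 was -0.21, against -0.0053 over all genes tested in that class. Of the 13, 4 were above 0, and 5 had an unadjusted edgeR p under 0.05 (14.4% of all genes did). For the 20 members tested in Micro-like nuclei the median was -0.26. Over the classes the members' median ran from -0.36 in Endo-like (8 tested) to 0.48 in Mural-like nuclei (4 tested), and it was not tested. Of 17 lipid transport genes, 11 were tested in Oligo-like nuclei and 1 rose (1.94% of all genes did): ABCA5, a lipid transporter of the same family as ABCA1, at 29.0, 20.9 and 30.1 CPM in control and 71.7, 48.1 and 73.9 CPM in ALP libraries (log2 fold change 1.18, SE 0.24, edgeR adjusted p = 0.022), and the call was lost in 5 of 17 alternatives, those without Control 1, Control 3, ALP 1 or ALP 3 among them (adjusted p up to 0.14). With 1 call each, these lists are described and not tested as sets.

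A few features named as antisense transcripts of members were called between the groups. Of the features related to members by name, antisense or copies, 2 of 10 tested were called in Oligo-like, 2 of 7 in Micro-like and 2 of 13 in Gran-like nuclei, and none in the other classes. In these 3 classes 4.96%, 0.652% and 0.899% of all features were called, and 14.6%, 3.52% and 3.70% of all antisense-named features. No antisense-named feature at all was called in the Pyra-like, ExN-like, InN-like, Endo-like, Mural-like or Ependymal-like class. Whether the counting used the strand of the reads was not given in the sources used here, so reads of a gene and of its antisense neighbour cannot be told apart. ANK3-AS-1 in Oligo-like nuclei read 242, 167 and 337 CPM in control and 50.0, 70.2 and 40.6 CPM in ALP libraries, a fall of 2.25 on the log2 scale (SE 0.27, edgeR adjusted p = 0.0091). It fell by 2.33 in Micro-like and by 2.37 in Gran-like nuclei, and the ALP libraries were below all control libraries in every class in which it was tested. ANK3 itself was not called in these classes, with log2 fold changes of 0.32, 0.20 and 0.31. BIN1-AS-3 fell by 1.60 in Oligo-like nuclei, JAZF1-AS-6 by 2.09 in Micro-like and JAZF1-AS-7 by 2.54 in Gran-like nuclei. The 3 ANK3-AS-1 calls were each lost without ALP 1 and without ALP 3, and those in Oligo-like and Micro-like nuclei also without Control 3 (edgeR adjusted p between 0.062 and 0.17). Those in Micro-like and Gran-like nuclei were lost with the replicate number as a block as well (0.20 and 0.073), while the log2 fold changes stayed between -2.66 and -1.95 over all alternatives.

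PTK2B-AS-3 stood the other way. In Gran-like nuclei it read 195, 8.36 and 92.0 CPM in control and 330, 326 and 350 CPM in ALP libraries, and in Pyra-like nuclei 126, 0 and 76.2 CPM against 277, 245 and 343 CPM, in both without overlap and without a call (edgeR adjusted p = 0.11 and 0.14). Control 2 set much of the control spread.

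As a whole, antisense-named features were scarcer in the ALP libraries. Their share of all UMIs was 5.93% to 8.58% in control and 4.58% to 5.23% in ALP libraries. In Oligo-like nuclei 278 of 1899 antisense-named features tested were called (14.6%), 24 of them higher in ALP, against 4.96% of all genes. In OPC-like nuclei 7.59% of them were called, in Gran-like 3.70% and in Micro-like nuclei 3.52%. The part of this difference in the antisense calls beside the members was not tested.

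**Figure D5:**
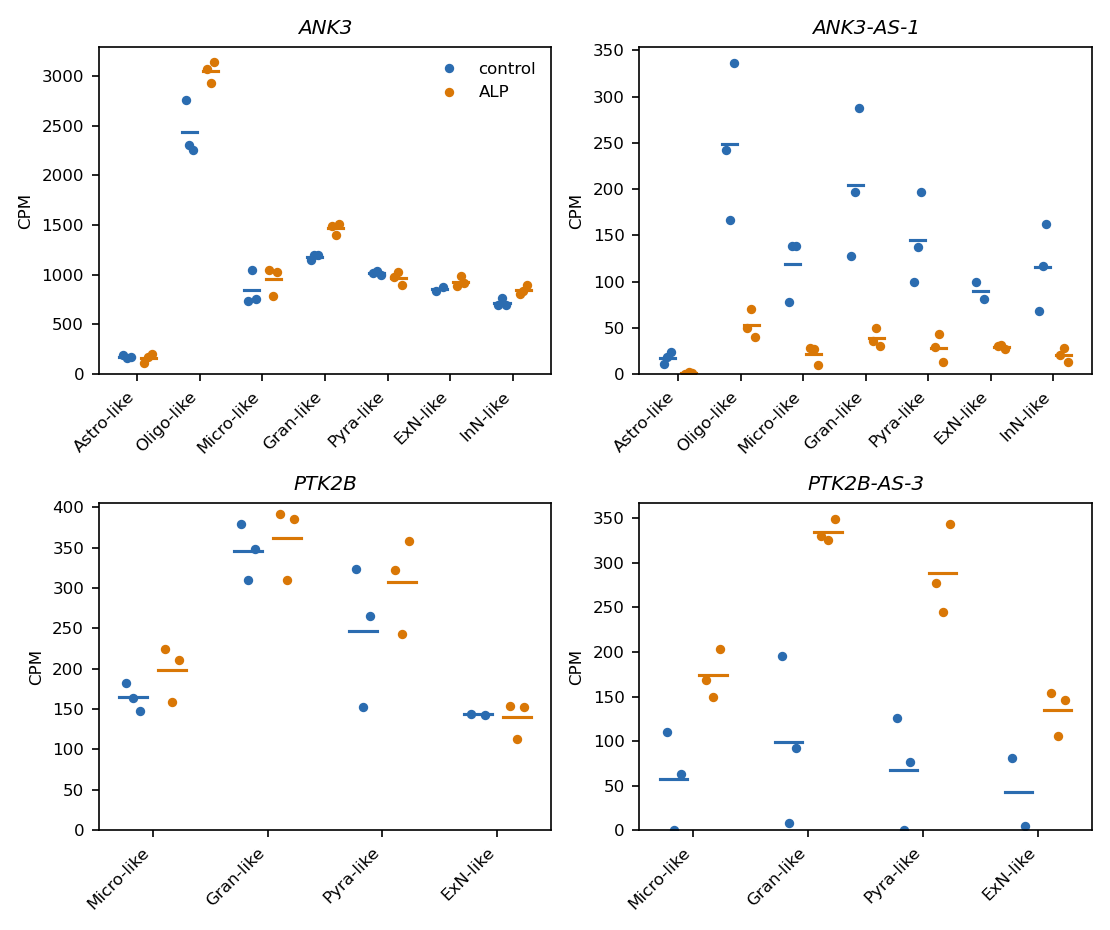
ANK3 and ANK3-AS-1, and PTK2B and PTK2B-AS-3, in every library and class as CPM of the group fits. ANK3-AS-1 lies lower in all ALP libraries than in all control libraries of Oligo-like nuclei (40.6 to 70.2 against 167 to 337 CPM), while ANK3 was called in no class.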

How the data were processed

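Hippocampal nuclei of 3 control and 3 ALP TSs were sequenced with 10x 3′ chemistry. The authors deposited UMI counts per gene and barcode from Cell Ranger (3.1.0 in the submitters' notes, 6.1.2 in the matrix headers) on a TreeshrewDB genome whose build and strand setting are not given in the sources used here. Barcodes with more than 200 and fewer than 2500 genes and under 5% mitochondrial UMIs were kept. Nuclei were clustered (2000 variable genes without the members, 30 components, Leiden resolution 2; scanpy 1.11.5) and classes named from marker lists. Clusters with over 15% of barcodes marked as doublets stayed unnamed, and marked doublets were removed in an alternative. Counts were summed per library and class (at least 10 nuclei) and tested with edgeR 4.0.16 (quasi-likelihood, TMM, filterByExpr with a minimum count of 10, Benjamini-Hochberg over all genes tested), after trials on simulated data. DESeq2 1.42.0 and other settings were alternatives. The members, gene lists and tests were chosen with earlier results of these data known. Pairs picked between groups were the called ones, the 3 members with the smallest unadjusted p in each class and each member in its class of highest level. Not all of these pairs are written out above. Partner genes were named where called.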

Additional observations from a re-analysis of the deposited data

Results flagged for a closer look

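For MEF2C and USP6NL, every ALP library lay on the opposite side of the control libraries in different classes, while the differences between classes given here were not themselves tested. For MEF2C the log2 fold change of ALP over control was higher in Astro-like than in ExN-like nuclei by 1.58 and than in Endo-like nuclei by 1.02, in Pyra-like than in ExN-like nuclei by 1.497 and than in Endo-like nuclei by 0.94, and in InN-like than in ExN-like nuclei by 1.15 and than in Endo-like nuclei by 0.59. For USP6NL it was higher in Oligo-like than in Pyra-like nuclei by 1.47 and than in ExN-like nuclei by 0.89, and in InN-like than in Pyra-like nuclei by 1.64 and than in ExN-like nuclei by 1.05. None of the class differences behind these values was called. The pairs of classes were picked because the groups lay apart in opposite directions, so large values follow from the choice. In the fit of each class against the mean of the other classes no member was called. The USP6NL value of Pyra-like nuclei ran from -1.16 to -0.13 over the alternatives. Over all classes the groups did not overlap in 31 of 182 member pairs (17.0%), against 22.6% of all gene and class pairs.

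Features outside the member list held signal. CD2APli1 had 5023 UMIs where CD2AP had none, and plain CPM of 155 ± 41.3 in Endo-like and 148 ± 52.4 in Micro-like nuclei against 47.3 ± 8.59 in Astro-like nuclei. TPCN1li1 had 7236 UMIs, of which 4318 were in Astro-like nuclei (667 ± 183 against 25.1 to 129 in the other classes). IL34li1 had 2811 UMIs and read 375 ± 159 in Mural-like, 164 ± 28.1 in Astro-like and 128 ± 39.2 in Endo-like nuclei. None of these was called between groups.

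Features named as antisense neighbours of members were called lower in ALP libraries: ANK3-AS-1 in Oligo-like (log2 fold change -2.25), Micro-like (-2.33) and Gran-like nuclei (-2.37), BIN1-AS-3 in Oligo-like (-1.60), JAZF1-AS-6 in Micro-like (-2.09) and JAZF1-AS-7 in Gran-like nuclei (-2.54). These were 2 of 10 related features tested in Oligo-like, 2 of 7 in Micro-like and 2 of 13 in Gran-like nuclei, where 14.6%, 3.52% and 3.70% of all antisense-named features were called, while 0 of 7 in Astro-like, 5 in OPC-like, 8 in Pyra-like, 12 in ExN-like and 14 in InN-like nuclei were.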

How the results depend on the processing

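Of 55 member and class pairs picked for ALP against control, not all of them written out here, 43 never changed sign under the alternatives. Of 876 recomputed values, 833 kept their sign and their side of the threshold. Leaving out LINC-FRMD8-1, clusters held unequally by the groups or antisense-named features was chosen after the data were seen. LINC-FRMD8-1, the feature with the most UMIs, held 9.51% to 36.7% of the UMIs of a class sum. Over all nuclei its share was 13.0% to 22.5% in control and 21.0% to 27.3% in ALP libraries. In Pyra-like nuclei it was 15.4% to 19.3% and 27.2% to 36.7%. Plain CPM and thinned shares count it in their total, and its part in them was not tested. Some sums rest on few nuclei, such as Control 2 in Micro-like nuclei. The causes of the changes below were not tested.

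The number of members called between groups in Oligo-like nuclei, 1 as reported, was 0 with DESeq2, with the replicate block and with clusters held by both groups only, and 0 to 2 with each library left out in turn: 0 without Control 1, Control 3, ALP 1 or ALP 3, and 2 without ALP 2. All genes called there, 585 as reported, were 463 with DESeq2, 308 with the replicate block, 174 without antisense-named features, 127 with clusters held by both groups, 1414 without the filter on low counts, 322 without Control 1, 1050 without Control 2, 1104 without ALP 2, 1 without Control 3 or ALP 1 and 2 without ALP 3. In Astro-like nuclei 1 member was called with DESeq2, without the filter and without ALP 2 (0 to 1 over the left-out libraries). All genes called there were 194, 717 and 237, against 18 as reported. In InN-like nuclei 1 member was called without the filter, where all genes called were 1418 against 0 as reported. In Micro-like nuclei the count was 0 to 1, with the call made without Control 2, where all genes called were 375 against 41 as reported. In ExN-like nuclei leaving out a control library left 1, so no count is given for those fits.

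Members higher in a class were 2 for Mural-like nuclei with upper-quartile factors, 5 for InN-like nuclei without the filter and 3 to 5 for Endo-like nuclei (3 without ALP 2). All genes called higher there were 1287, 6635 and 1935, against 1010, 2620 and 2232 as reported. Members whose ALP difference departed from that of other classes numbered 1 in Astro-like nuclei at resolution 1, 1 in Pyra-like nuclei with upper-quartile factors, at resolution 1 and with no upper limit on genes, and 1 in ExN-like nuclei with no upper limit. All genes called there were 22 in Astro-like (9 as reported), 141, 166 and 8 in Pyra-like (199) and 32 in ExN-like nuclei (61). Over left-out libraries these counts were 0 to 1 in Astro-like nuclei (without Control 1 or ALP 2, with 34 and 50 of all genes called). They were 0 to 1 in Pyra-like nuclei too (without Control 1, with 365 of all genes called). For ExN-like nuclei leaving out a control library left 1, so no count is given for those fits. The CR1 share in Pyra-like nuclei was 7.99% at 500 UMIs and 47.6% without thinning.

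Signs changed only for pairs that were not called. With no upper limit on genes the log2 fold changes were 0.23 for ADAM17 in Pyra-like, -0.066 for MEF2C in Mural-like, -0.29 for SLC24A4 in Gran-like, 0.14 for SNX1 in ExN-like and 0.12 for TNIP1 in Pyra-like nuclei. In Pyra-like nuclei CR1 was 0.024 with DESeq2 and 0.15 without the filter, and TNIP1 0.00886 and 0.14. PICALM in Oligo-like nuclei was 0.083 with clusters held by both groups, PTK2B in Gran-like nuclei -0.0021 without antisense-named features and SLC24A4 in Gran-like nuclei -0.028 with the replicate block. With libraries left out, values ran from -0.35 to 0.071 for ADAM17 in Pyra-like, -0.021 to 0.18 for BIN1 in Oligo-like, -0.20 to 0.15 for CR1 in Pyra-like, -0.051 to 0.19 for MEF2C in Micro-like, -0.096 to 0.80 for MEF2C in Mural-like, -0.14 to 0.060 for PICALM in Oligo-like, -0.35 to 0.59 for SLC24A4 in Gran-like, -0.32 to 0.15 for TNIP1 in Pyra-like, -0.35 to 0.091 for USP6NL in Micro-like and -0.31 to 0.85 for WWOX in Mural-like nuclei.

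Libraries of equal number in the 2 groups showed no clear shared deviation (correlations between -0.23 and 0.13). With 3 libraries per group these correlations cannot exclude that the numbers pair them. Besides CELF1, the block ended the calls of ANK3-AS-1 in Micro-like and Gran-like nuclei, JAZF1-AS-6, JAZF1-AS-7, LAPTM5 and VPS35 (adjusted p = 0.20, 0.073, 0.21, 0.11, 0.21 and 0.15), and no other named call. No alternative changed the sign of a called partner gene or antisense neighbour, but each lost its call in 3 or more alternatives, all of them without ALP 1 and without ALP 3. Beyond those named in the report, BIN1-AS-3 lost its call in 5 of 16 alternatives (without Control 1 or Control 3 too), JAZF1-AS-6 in 8 of 14 (without each library but Control 2) and JAZF1-AS-7 in 6 of 16 (without Control 3 or ALP 2 too), with adjusted p up to 0.16, 0.29 and 0.27.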

Other observations

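The members with the fewest UMIs left only counts. Of 119 RIN3 UMIs, an exchange factor for an early-endosome GTPase, 43 were in Micro-like and 21 in Pyra-like nuclei. ADAMTS1, an extracellular metalloprotease, had 14 of 29 UMIs in the 415 Endo-like nuclei. ECHDC3, an enzyme of lipid metabolism by its domain, had 17 of 73 UMIs in Oligo-like, 15 in Astro-like and 14 in OPC-like nuclei. ZCWPW1, a histone reader, had 15 of 40 in Oligo-like nuclei. EPHA1, an ephrin receptor, had 5 of 20 in Oligo-like and 5 in Pyra-like nuclei.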
